A study of Homo sapiens with 9 samples.

Results

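Genes that supply myo-inositol and turn over the inositol pyrophosphates, 10 in all, were followed in 9 RNA sequencing libraries of cells labelled as HCT-15, a long-established line from a human colorectal adenocarcinoma. The genes were chosen by name, for their roles, with earlier results of these data known. All 10 were found among the 36018 genes of the count files and passed the filter on low counts. The CoCl2-tolerant line was derived from HCT-15 by growth in rising amounts of cobalt chloride, a salt that mimics hypoxia. The low-glucose-tolerant line was derived in the same way under glucose limitation, and the control was untreated HCT-15. Each group had 3 libraries, the genotype was given as wild type throughout, and the labels' protocols name RPMI medium with 10% fetal bovine serum for all cells. Doses, glucose levels and times of selection are not in the labels. Each tolerance is represented by 1 derived line, so an effect of the agent cannot be told apart from whatever else happened while that line was grown. Whether the 3 libraries of a group stem from separate cultures is not in the labels, so p-values measure only how far these libraries differ, possibly for technical reasons. In such bulk samples fewer cells of a type and less RNA per cell cannot be told apart.

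Cells obtain inositol in 2 ways. They take it up through sodium-coupled transporters such as SLC5A3, or they make it from glucose 6-phosphate with the synthase ISYNA1. Phosphatases (IMPA1, IMPA2 and INPP1) recycle it from inositol phosphates released in signalling, and MIOX degrades it. Inositol hexaphosphate, the compound the series concerns, is the precursor of the inositol pyrophosphates, which carry diphosphate groups and take part in phosphate and energy sensing. PPIP5K1 and PPIP5K2 add a phosphate to form a diphosphate group, and the Nudix hydrolases NUDT3 and NUDT4 cleave such groups.

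Library totals ran from 25178615 to 27829153 counts in the CoCl2-tolerant line, from 29971930 to 30115866 in the low-glucose-tolerant line and from 30075024 to 32674687 in the control. Levels are in CPM (the usual read count scaled to library size, here adjusted by trimmed means of M values), and 3 counts, taken as the floor, correspond to at most 0.12 CPM in a library. On the second principal component low-glucose-tolerant replicate 2 was at -17.2, and the other two libraries of its group at -1.22 and 1.32. Without it the counts of called members in the 3 comparisons stayed at 5, 7 and 7. The epithelial markers EPCAM, CDH1, KRT8, KRT18 and KRT19 summed to 1381 to 1677 CPM in CoCl2-tolerant, 2502 to 3410 CPM in low-glucose-tolerant and 1367 to 1402 CPM in control libraries, nearly all of it keratins. CDH1 averaged 1.41, 8.14 and 17.8 CPM and EPCAM 21.8, 55.7 and 54.7 CPM in the CoCl2-tolerant, low-glucose-tolerant and control lines. Of 10 intestinal markers analysed, 8 were under 1 CPM in every group, CDX2, KRT20 and MUC2 among them. All 5 endothelial and 6 of 7 leukocyte markers were under 1 CPM in every group. Summed fibroblast markers were 242 to 273, 25.5 to 35.4 and 1832 to 1880 CPM in the CoCl2-tolerant, low-glucose-tolerant and control libraries, nearly all of it COL1A1, while 4 of the 7 were under 1 CPM in every group. Kidney tubule markers summed to 592 to 625, 294 to 352 and 589 to 611 CPM, mostly PAX8. The part of these differences in the results below was not tested.

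Against control, 5 of the 10 genes differed in the CoCl2-tolerant line (1 higher, 4 lower), at a Benjamini-Hochberg adjusted p under 0.05 in edgeR's quasi-likelihood test. Across all 17902 genes tested, 36.1% passed the same rule, 17.9% higher and 18.2% lower. In the low-glucose-tolerant line 7 of the 10 changed (3 higher, 4 lower), beside 69.2% of all genes (34.6% in each direction). Between the tolerant lines 7 differed (4 higher and 3 lower in the CoCl2-tolerant line), beside 63.9% of all genes (31.9% higher and 32.0% lower). The number of calls does not set the 10 genes apart from all genes in any of the 3 comparisons, and in the CoCl2-tolerant comparison it was 3 without control replicate 1 or 2. Calls among all genes also fell there, from 6459 of 17902. They were 4619 of 18362 without control replicate 1 and 4463 of 18282 without control replicate 2. Both comparisons with the control use the same 3 control libraries. By the median size of the log2 fold change the 10 genes moved by 0.21 in the CoCl2-tolerant and 0.88 in the low-glucose-tolerant line, beside 0.35 and 0.74 for all genes. At least 2-fold changes were seen in 1 gene in the CoCl2-tolerant line (11.1% of all genes) and in 5 in the low-glucose-tolerant line (36.7% of all genes), and 3 genes differed at least 2-fold between the tolerant lines (31.5% of all genes). The libraries of the groups compared did not overlap in 5 of the 10 genes in the CoCl2-tolerant comparison (57.2% of all genes), in 8 in the low-glucose-tolerant comparison (73.3%) and in 6 between the tolerant lines (63.1%).

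**Figure D1:**
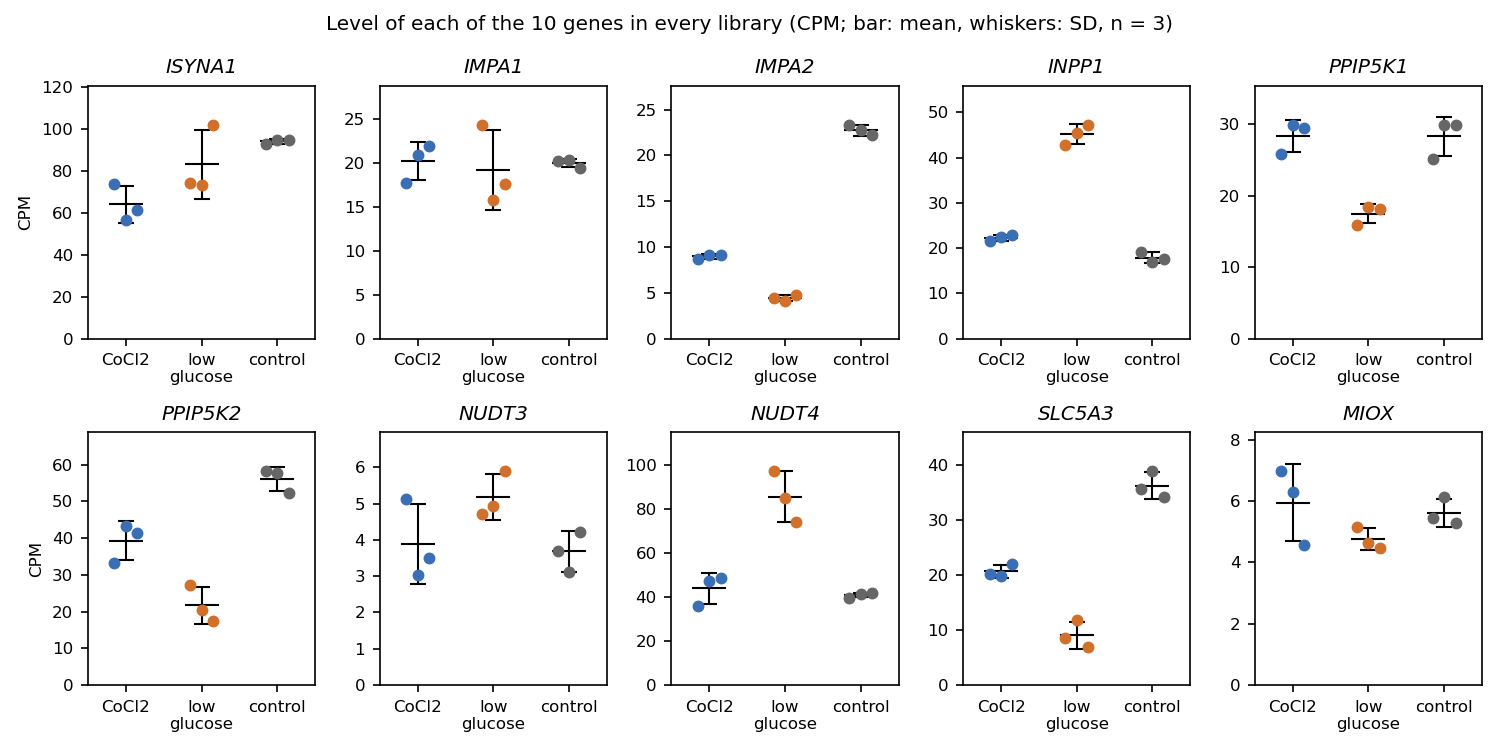
Level of each of the 10 genes in CPM (vertical axes, each from 0) in CoCl2-tolerant, low-glucose-tolerant and control libraries. Points are libraries, horizontal bars means and whiskers SD (n = 3). IMPA2, SLC5A3 and PPIP5K2 lie in 3 separate steps with the control highest, while INPP1 and NUDT4 stand out as high in the low-glucose-tolerant line.

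SLC5A3, the sodium/myo-inositol cotransporter that carries inositol into the cell, was lower in both tolerant lines. It had 20.1, 19.7 and 22.001 CPM in CoCl2-tolerant, 8.50, 11.8 and 6.88 CPM in low-glucose-tolerant and 35.5, 38.9 and 34.1 CPM in control libraries. The 3 groups did not overlap, and the low-glucose-tolerant libraries were the lowest. Against control the log2 fold change was -0.81 ± 0.15 (SE) in the CoCl2-tolerant line (edgeR adjusted p = 0.00113) and -2.00 ± 0.16 in the low-glucose-tolerant line (edgeR adjusted p = 7.94e-08). In the fit this left 57.0% of the control level in the CoCl2-tolerant and 25.03% in the low-glucose-tolerant line. The direct comparison gave 1.19 ± 0.16 (edgeR adjusted p = 1.89e-05). SLC5A3 lies on chromosome 21, 34073570 to 34106262 (GRCh38, gene ENSG00000198743), inside the locus of MRPS6, a mitochondrial ribosomal protein gene on the same strand. The 2 genes share 2.36% of the exon bases of SLC5A3. MRPS6 itself was at means of 22.7, 21.8 and 19.98 CPM in the CoCl2-tolerant, low-glucose-tolerant and control lines, and did not pass in either comparison with control (edgeR adjusted p = 0.323 and 0.451).

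ISYNA1, the synthase that turns glucose 6-phosphate into inositol phosphate, had the highest level of the 10 per kilobase of exon in every group. Its levels were 73.8, 56.5 and 61.4 CPM in CoCl2-tolerant, 74.1, 73.0 and 102 CPM in low-glucose-tolerant and 92.6, 94.5 and 94.8 CPM in control libraries. All CoCl2-tolerant libraries lay below all control libraries. Low-glucose-tolerant replicate 3 lay above the control libraries and the other two below them. The gene fell in the CoCl2-tolerant line (log2 fold change -0.56 ± 0.14, edgeR adjusted p = 0.00671) and did not pass in the low-glucose-tolerant line (-0.18 ± 0.14, 95% interval -0.47 to 0.12, edgeR adjusted p = 0.263). Without low-glucose-tolerant replicate 3 the low-glucose-tolerant comparison passed, at -0.34 (edgeR adjusted p = 0.0197, with 0.0197 to 0.596 over the alternatives). The tolerant lines differed from each other by -0.38 ± 0.14 (edgeR adjusted p = 0.0278). That call ended in 6 alternatives, among them the removal of CoCl2-tolerant replicate 2 or 3 or of low-glucose-tolerant replicate 3, with adjusted p of 0.118, 0.0849 and 0.127 (over all alternatives 0.00615 to 0.127). ISYNA1 lies on chromosome 19, 18434388 to 18438301, and shares 5.33% of its exon bases with SSBP4 on the opposite strand. SSBP4 was higher in the low-glucose-tolerant line (50.7 against 32.5 CPM in control, edgeR adjusted p = 7.42e-04), and since the strand setting of the counting is not known, its part in the ISYNA1 counts was not tested.

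The recycling phosphatases moved apart. IMPA2, an inositol monophosphatase that frees inositol in the last step of recycling and is inhibited by lithium, had the largest change of the 10 in both tolerant lines. It stood at 8.67, 9.10 and 9.11 CPM in CoCl2-tolerant, 4.45, 4.08 and 4.78 CPM in low-glucose-tolerant and 23.4, 22.7 and 22.2 CPM in control libraries. The groups did not overlap, and libraries of a group lay within 1 CPM of each other in both tolerant lines. The log2 fold change was -1.34 ± 0.11 in the CoCl2-tolerant line (edgeR adjusted p = 9.31e-07) and -2.36 ± 0.12 in the low-glucose-tolerant line (edgeR adjusted p = 7.36e-10), which left 39.4% and 19.5% of the control level. The tolerant lines differed by 1.01 ± 0.12 (edgeR adjusted p = 5.66e-06). IMPA2 lies on chromosome 18, 11981025 to 12030883, and shares no exon bases with another gene of GENCODE release 29.

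IMPA1, its paralogue on chromosome 8 with the same reaction, did not pass in any comparison. Its levels were 17.7, 20.9 and 21.9 CPM in CoCl2-tolerant, 24.4, 15.7 and 17.6 CPM in low-glucose-tolerant and 20.2, 20.3 and 19.4 CPM in control libraries, and the groups overlapped. The log2 fold changes were 0.01 (95% interval -0.31 to 0.34) in the CoCl2-tolerant and -0.06 (-0.38 to 0.27) in the low-glucose-tolerant line (edgeR adjusted p = 0.953 and 0.757). Per kilobase of annotated exon, the level of IMPA2 over that of IMPA1 was 0.475, 0.424 and 0.405 in CoCl2-tolerant, 0.178, 0.252 and 0.264 in low-glucose-tolerant and 1.12, 1.09 and 1.11 in control libraries. IMPA2 was thus slightly above IMPA1 in every control library and below it in every tolerant library. This and the other ratios were chosen after the levels were seen and are given without a test.

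INPP1, a phosphatase upstream of the monophosphatases that is also sensitive to lithium, was the only one of the 10 to rise in both tolerant lines. It had 21.5, 22.5 and 22.8 CPM in CoCl2-tolerant, 42.9, 45.4 and 47.3 CPM in low-glucose-tolerant and 19.2, 17.0 and 17.6 CPM in control libraries. No groups overlapped, though the CoCl2-tolerant and control libraries were separated by little. The log2 fold change in the low-glucose-tolerant line was 1.34 ± 0.11 (2.52-fold, edgeR adjusted p = 6.36e-08). In the CoCl2-tolerant line it was 0.32 ± 0.11 (1.25-fold, edgeR adjusted p = 0.0317). The smaller call ended in 7 alternatives. Removal of CoCl2-tolerant replicate 2 or 3 gave adjusted p of 0.0796 and 0.106, and removal of control replicate 1, 2 or 3 gave 0.0601, 0.142 and 0.121. A fit with no filter on low counts gave 0.105 and the replicate block 0.0673 (over all alternatives 0.00983 to 0.142). The difference between the tolerant lines was -1.02 ± 0.11 (edgeR adjusted p = 1.24e-06). INPP1 lies on chromosome 2, 190343470 to 190371665, and shares 5.50% of its exon bases with HIBCH on the opposite strand, which was lower in the low-glucose-tolerant line (10.7 against 15.9 CPM in control, edgeR adjusted p = 0.00211).

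The enzymes of pyrophosphate turnover also split. PPIP5K2 is one of the kinases that form a diphosphate group. It had 33.3, 43.3 and 41.3 CPM in CoCl2-tolerant, 27.2, 20.5 and 17.3 CPM in low-glucose-tolerant and 58.3, 57.6 and 52.4 CPM in control libraries. The 3 groups were again separate, with the control highest. The log2 fold change was -0.51 ± 0.15 in the CoCl2-tolerant line (edgeR adjusted p = 0.0175) and -1.37 ± 0.16 in the low-glucose-tolerant line (edgeR adjusted p = 2.42e-06). The call in the CoCl2-tolerant line ended without CoCl2-tolerant replicate 1, control replicate 1 or control replicate 2, with adjusted p of 0.0686, 0.0619 and 0.0610 (over all alternatives 0.00134 to 0.0686). Its paralogue PPIP5K1 was at 25.8, 29.8 and 29.5 CPM in CoCl2-tolerant, 15.9, 18.4 and 18.1 CPM in low-glucose-tolerant and 25.1, 29.95 and 29.9 CPM in control libraries. The CoCl2-tolerant and control libraries overlapped, and all low-glucose-tolerant libraries lay below both. PPIP5K1 fell in the low-glucose-tolerant line (-0.70 ± 0.12, edgeR adjusted p = 1.23e-04) and did not pass in the CoCl2-tolerant line (0.00168, 95% interval -0.25 to 0.25, edgeR adjusted p = 0.993). Both kinases were higher in the CoCl2-tolerant than in the low-glucose-tolerant line (0.86 ± 0.16 for PPIP5K2 and 0.70 ± 0.12 for PPIP5K1, edgeR adjusted p = 2.40e-04 and 1.53e-04). PPIP5K2 lies on chromosome 5, 103120149 to 103212799, and PPIP5K1 on chromosome 15, 43533462 to 43590253.

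NUDT4 is a hydrolase that cleaves the diphosphate groups of inositol pyrophosphates. It had 35.7, 47.2 and 48.5 CPM in CoCl2-tolerant, 97.1, 85.0 and 74.2 CPM in low-glucose-tolerant and 39.6, 41.4 and 41.5 CPM in control libraries. CoCl2-tolerant and control libraries overlapped, and the low-glucose-tolerant libraries were all higher. The log2 fold change in the low-glucose-tolerant line was 1.06 ± 0.13 (2.09-fold, edgeR adjusted p = 6.65e-06). In the CoCl2-tolerant line it was 0.10 (95% interval -0.19 to 0.39, edgeR adjusted p = 0.587). The direct difference was -0.96 ± 0.13 (edgeR adjusted p = 2.23e-05). NUDT4 lies on chromosome 12, 93377883 to 93408146, and 24.5% of its exon bases are shared with UBE2N, a ubiquitin-conjugating enzyme gene on the opposite strand. UBE2N was lower in the low-glucose-tolerant line (74.4 against 98.2 CPM in control, edgeR adjusted p = 0.00921), opposite in direction to NUDT4. The near-identical copies NUDT4B and NUDT4P2 held at most 27 and 1 counts in a library, and the calls of NUDT4 stood with these counts added. Whether reads that fit NUDT4 and a copy equally were left out of the counts is not given in the sources. So few added counts do not test it.

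NUDT3, the related hydrolase, had the lowest level of the 10 per kilobase in every group, and that level is uncertain. It had 128, 87 and 99 counts in CoCl2-tolerant, 139, 144 and 163 in low-glucose-tolerant and 114, 106 and 133 in control libraries. Other genes overlap 95.9% of its exon bases. The readthrough gene RPS10-NUDT3 covers 43.3% on the same strand and a non-coding gene, ENSG00000225339, covers 71.6% on the opposite strand. RPS10-NUDT3 held at most 4 counts in a library. RPS10, whose exons lie in the same readthrough gene, was at 1.28 CPM over the 9 libraries, against a median of 596 CPM for 79 other cytosolic ribosomal protein genes, of which 2 were lower. Whether reads in the shared exons were left out of the counts is not given in the sources, so the true level of NUDT3 may be higher. NUDT3 was at 5.14, 3.05 and 3.50 CPM in CoCl2-tolerant, 4.72, 4.93 and 5.90 CPM in low-glucose-tolerant and 3.70, 3.12 and 4.22 CPM in control libraries. The low-glucose-tolerant libraries lay above the control, and the CoCl2-tolerant libraries overlapped both. The gene passed in the low-glucose-tolerant line (log2 fold change 0.49 ± 0.20, edgeR adjusted p = 0.0365). The call ended with library totals as the scaling and without low-glucose-tolerant replicate 3, control replicate 1 or control replicate 2, with adjusted p of 0.0749, 0.109, 0.0732 and 0.146 (over all alternatives 0.0141 to 0.146). It did not pass in the CoCl2-tolerant line (0.08, 95% interval -0.36 to 0.51, edgeR adjusted p = 0.796). Between the tolerant lines it stood at -0.42 ± 0.20 (edgeR adjusted p = 0.0779), and it passed with no filter on low counts and without CoCl2-tolerant replicate 1 (adjusted p = 0.0495 and 0.00773, over all alternatives 0.00773 to 0.285). NUDT3 lies on chromosome 6, 34279679 to 34392674.

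MIOX, the oxygenase that opens the inositol ring and is best known from the kidney tubule, was at 6.98, 6.30 and 4.56 CPM in CoCl2-tolerant, 5.17, 4.63 and 4.49 CPM in low-glucose-tolerant and 5.46, 6.14 and 5.27 CPM in control libraries. These rest on 124 to 209 counts a library. The low-glucose-tolerant libraries lay below the control without overlap, as in 73.3% of all genes, yet the test did not pass (log2 fold change -0.24, 95% interval -0.60 to 0.11, edgeR adjusted p = 0.207). Nor did it pass in the CoCl2-tolerant line (0.08, 95% interval -0.27 to 0.43, edgeR adjusted p = 0.743). Between the tolerant lines it stood at 0.32 ± 0.17 (edgeR adjusted p = 0.109), and it passed in 3 alternatives, with library totals, with the stricter filter and without CoCl2-tolerant replicate 3 (adjusted p = 0.0456, 0.0477 and 0.0214, over all alternatives 0.0214 to 0.358). MIOX lies on chromosome 22, 50486784 to 50490648, and shares no exon bases with another gene. Of the 6 other tubule markers analysed, SLC12A1, SLC34A1 and AQP1 were under 1 CPM in every group and CUBN was at most 1.07 CPM. PAX2 averaged 34.4, 47.9 and 28.2 CPM and PAX8 577, 277 and 568 CPM in the CoCl2-tolerant, low-glucose-tolerant and control lines.

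**Figure D2:**
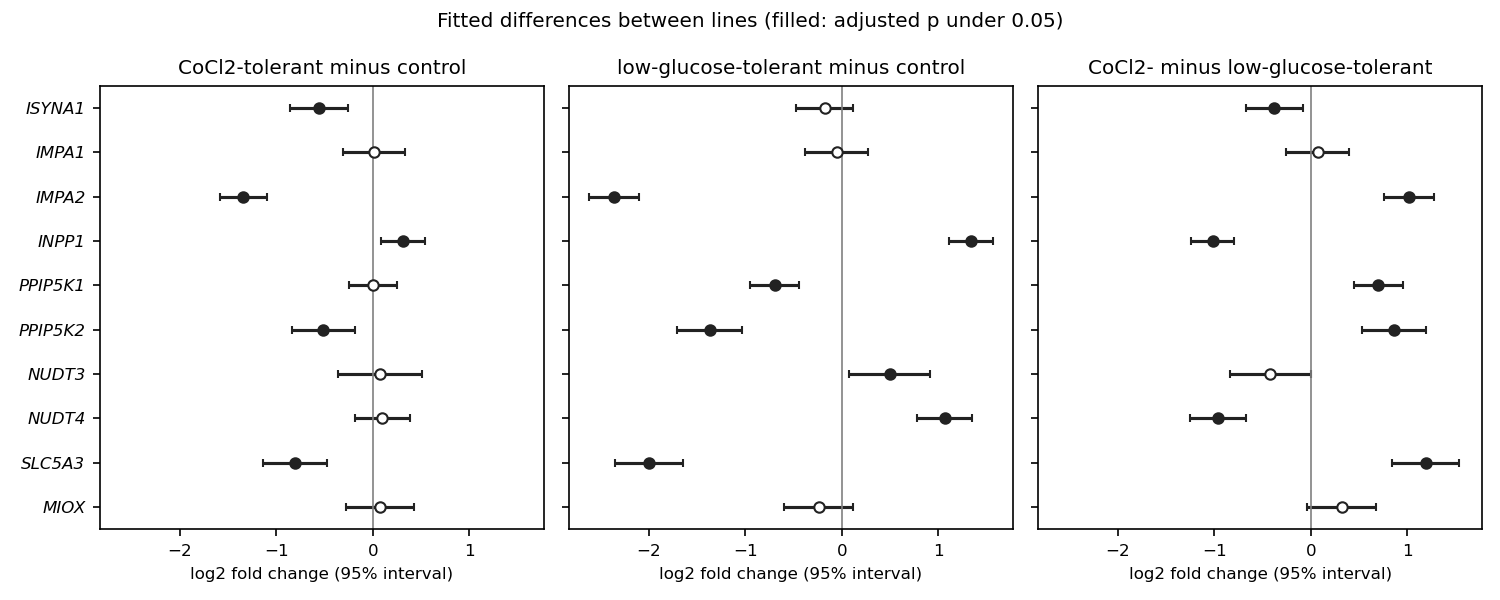
Log2 fold changes of the 10 genes (horizontal axis) with 95% intervals for CoCl2-tolerant minus control, low-glucose-tolerant minus control and CoCl2-tolerant minus low-glucose-tolerant. Filled points passed at an adjusted p under 0.05, and IMPA2 and SLC5A3 lie farthest below 0 against the control in both lines.

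The balance between pairs of the genes was also read within each library. Per kilobase, the level of NUDT4 over that of PPIP5K2 was 1.84, 1.87 and 2.01 in CoCl2-tolerant, 6.11, 7.11 and 7.33 in low-glucose-tolerant and 1.17, 1.23 and 1.36 in control libraries. The groups did not overlap. Whether the ratio lies above 1 depends on the exon length used. Without division by length it was 1.07, 1.09 and 1.17 in CoCl2-tolerant, 3.57, 4.15 and 4.28 in low-glucose-tolerant and 0.680, 0.719 and 0.793 in control libraries, in the same order of groups. PPIP5K2 over PPIP5K1 was 0.604, 0.678 and 0.656 in CoCl2-tolerant, 0.799, 0.522 and 0.448 in low-glucose-tolerant and 1.08, 0.900 and 0.821 in control libraries. ISYNA1 over SLC5A3 was 12.9, 10.1 and 9.84 in CoCl2-tolerant, 30.7, 21.9 and 52.3 in low-glucose-tolerant and 9.18, 8.57 and 9.81 in control libraries. These are RNA levels of a synthase gene over a transporter gene, and neither synthesis nor uptake of inositol was measured. The low-glucose-tolerant ratios lay above all others and were the most spread.

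**Figure D3:**
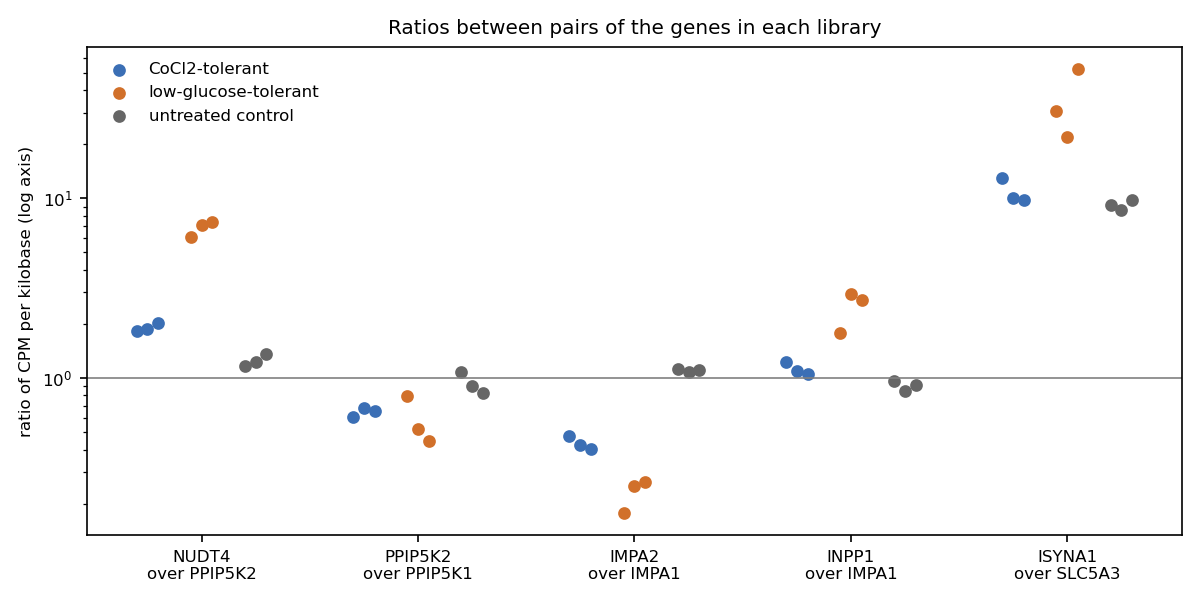
Ratios of CPM per kilobase of exon between pairs of the genes (log axis), 1 point per library, for CoCl2-tolerant, low-glucose-tolerant and control libraries. NUDT4 over PPIP5K2 runs from 6.11 to 7.33 in the low-glucose-tolerant libraries, while IMPA2 over IMPA1 is above 1 in the control libraries alone.

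Levels of different genes were compared per kilobase of annotated exon, on the union of all exons of a gene, which sets the value for genes with long or rarely used exons. ISYNA1 was first in every group, at 19.5 ± 2.72, 25.3 ± 5.01 and 28.6 ± 0.369 CPM per kilobase in the CoCl2-tolerant, low-glucose-tolerant and control lines (SD, n = 3). NUDT3 was listed last, with the uncertainty of its shared exons. In the control, IMPA2 (5.95 ± 0.156), IMPA1 (5.37 ± 0.136) and INPP1 (4.87 ± 0.307) followed. PPIP5K2, MIOX and SLC5A3, at 3.25, 3.13 and 3.12 CPM per kilobase, lay within their spread of each other. In the CoCl2-tolerant line INPP1 and IMPA1 led after ISYNA1 (6.06 ± 0.189 and 5.42 ± 0.582), within their spread of each other, and IMPA2 was at place 7. INPP1 (12.3 ± 0.606) and NUDT4 (8.48 ± 1.14) came next after ISYNA1 in the low-glucose-tolerant line. There IMPA2 and PPIP5K2 (1.16 ± 0.0914 and 1.26 ± 0.292) did not differ beyond their spread, nor did SLC5A3 and NUDT3 (0.781 ± 0.215 and 0.524 ± 0.0632).

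The spread between libraries was wider in the tolerant lines than in the control for several members, but not for all. Pairs of libraries of a group also differed more in the tolerant lines than in the control. Chi-squared over its degrees of freedom was 8.096 to 31.3 for CoCl2-tolerant, 25.98 to 70.6 for low-glucose-tolerant and 2.28 to 6.79 for control pairs. Whether the members were more spread than all genes was not tested. The coefficient of variation of ISYNA1 was 14.0%, 19.8% and 1.29% in the CoCl2-tolerant, low-glucose-tolerant and control lines. That of IMPA1 was 10.7%, 23.7% and 2.54%. IMPA2 varied little in any group, at 2.82%, 7.89% and 2.63%. SLC5A3 and PPIP5K2 varied most in the low-glucose-tolerant line, at 27.5% and 23.3%, against 6.78% and 5.74% in the control. PPIP5K1 went the other way, at 7.91%, 7.61% and 9.70% in the CoCl2-tolerant, low-glucose-tolerant and control lines. So did INPP1, at 3.12%, 4.93% and 6.31%. For NUDT3 the values were 28.3%, 12.1% and 15.1%.

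The 10 genes lie on 10 different chromosomes. The 250 bases before the start site are shown for SLC5A3, PPIP5K2, INPP1 and NUDT4, which had the largest changes in the low-glucose-tolerant line among members with a promoter in the RefSeq table (GRCh38.p14). For NUDT4 the first of 2 listed starts is shown. Capitals mark matches to the motifs listed after them.
SLC5A3, chr21:34073328-34073577, plus strand: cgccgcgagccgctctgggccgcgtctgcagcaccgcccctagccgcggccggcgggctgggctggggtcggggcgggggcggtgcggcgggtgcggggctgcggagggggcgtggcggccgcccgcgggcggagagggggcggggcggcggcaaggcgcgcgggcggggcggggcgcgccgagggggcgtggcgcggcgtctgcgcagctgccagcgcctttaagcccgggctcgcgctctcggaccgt
PPIP5K2, chr5:103120051-103120300, plus strand: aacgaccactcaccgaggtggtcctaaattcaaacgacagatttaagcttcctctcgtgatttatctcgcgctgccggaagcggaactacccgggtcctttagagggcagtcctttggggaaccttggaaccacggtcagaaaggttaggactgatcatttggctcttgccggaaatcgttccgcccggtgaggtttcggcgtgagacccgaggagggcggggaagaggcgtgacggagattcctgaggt
INPP1, chr2:190343339-190343588, plus strand: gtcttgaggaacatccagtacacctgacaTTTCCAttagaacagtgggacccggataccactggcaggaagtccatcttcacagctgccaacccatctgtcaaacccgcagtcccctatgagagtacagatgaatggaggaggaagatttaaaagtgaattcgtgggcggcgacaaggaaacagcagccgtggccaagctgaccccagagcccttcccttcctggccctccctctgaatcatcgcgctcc
NUDT4, chr12:93377675-93377924, plus strand: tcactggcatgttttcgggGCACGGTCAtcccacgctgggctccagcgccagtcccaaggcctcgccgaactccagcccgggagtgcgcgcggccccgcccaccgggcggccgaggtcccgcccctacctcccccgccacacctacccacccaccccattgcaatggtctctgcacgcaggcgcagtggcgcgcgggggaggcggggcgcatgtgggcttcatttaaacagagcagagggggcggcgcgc
In windows of 300 bases, with 50 bases past the start site, 5 motifs were searched on both strands in 13 windows of 8 members. ACGTG, a form of the core of the hypoxia response element, had no match in any of them, beside 21.4% of 35116 promoters. The E-box CACGTG, which always holds ACGTG, had none either (7.26% of promoters), nor did TGATGNAAN, the composite site of ATF4 (3.61%). The other form of the hypoxia core, GCGTG, was not searched. Counting both strands, it is found in the SLC5A3, PPIP5K2 and NUDT4 stretches shown. TGACNNNGC, the antioxidant response core, matched in INPP1, NUDT4 and MIOX (13.3% of promoters). In INPP1 that match, TGACGTCGC, begins 6 bases past the start and so lies outside the stretch shown. TGGAAA, the core of the tonicity element, matched in INPP1, NUDT3 and 1 of the 4 starts of PPIP5K1 (20.7%). The SLC5A3 window had no match to any of the 5 and was 82.0% G and C, and the PPIP5K2 window, also without a match, 54.7%. The median over all promoters was 58.7%. A match is a stretch of letters and says nothing of a factor's binding.

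The genes whose profile over the 9 libraries was nearest to each called member were taken from 10588 or 10589 protein-coding genes at a mean of at least 5 CPM, by the root mean square difference of centred log2 CPM (with 0.5 added). For SLC5A3 these were the sulfate transporter SLC26A2 (0.10) and the collagen gene COL8A1 (0.11), against a median of 0.91 over all candidates. SLC26A2 stood at 110, 44.7 and 176 CPM in the CoCl2-tolerant, low-glucose-tolerant and control lines. IMPA2 was nearest to TENT5B and the growth factor receptor gene FGFR4 (0.10 and 0.11, median 0.997), and FGFR4 had 41.3, 20.4 and 94.5 CPM. PPIP5K2 was nearest to SCML1 and ACSL3 (0.05 and 0.08), INPP1 to LTBR and VPS37B (0.05 and 0.06), and NUDT4 to SLC35F5 and FGF2 (0.07 and 0.08). LTBR, the lymphotoxin beta receptor, had 204, 418 and 168 CPM, and FGF2, a fibroblast growth factor, had 115, 235 and 108 CPM. PPIP5K1 was nearest to GXYLT2 and WDR55 (0.09 and 0.10), ISYNA1 to CCHCR1 and LRRC75B (0.08 and 0.09) and NUDT3 to UBE2L6 and RING1 (0.09 each). The nearest of so many candidates lie below the median by selection, and regulation in common was not tested.

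Other genes of the pathway were followed as lists chosen for their roles, with earlier results of these data known. Their counts stand beside shares of all genes of 17.9% higher and 18.2% lower in the CoCl2-tolerant line and of 34.6% in each direction in the low-glucose-tolerant line. Of the other inositol transporters, SLC2A13, the proton-coupled carrier, was at 20.9 ± 5.98, 15.3 ± 4.23 and 26.7 ± 1.97 CPM in the CoCl2-tolerant, low-glucose-tolerant and control lines. It fell in the low-glucose-tolerant line (log2 fold change -0.80 ± 0.21, edgeR adjusted p = 0.00393) and did not pass in the CoCl2-tolerant line (-0.35 ± 0.21, edgeR adjusted p = 0.211). SLC5A11, the second sodium-coupled transporter, and the diphosphoinositol hydrolases NUDT10 and NUDT11 were under the filter, each with a mean of at most 0.252 CPM in a group. Among 10 genes, 9 inositol phosphate kinases and the phosphatase MINPP1, 4 rose and 2 fell in the CoCl2-tolerant line, and 4 rose and 2 fell in the low-glucose-tolerant line. IP6K2, which makes pyrophosphates from inositol hexaphosphate, rose in both, to 91.5 ± 8.96 CPM in CoCl2-tolerant and 87.1 ± 9.04 CPM in low-glucose-tolerant cells, against 57.7 ± 0.291 CPM in control (edgeR adjusted p = 4.05e-04 and 2.63e-04). Of its paralogues with the same reaction, IP6K3 fell in both lines, to 0.741 ± 0.0886 and 0.207 ± 0.0987 CPM against 1.51 ± 0.291 CPM in control (edgeR adjusted p = 0.0113 and 4.21e-06), and IP6K1 did not pass in either (edgeR adjusted p = 0.269 and 0.346). ITPKA, a kinase of inositol trisphosphate, showed the largest rise of that list, to 76.6 ± 12.4 CPM in low-glucose-tolerant cells against 4.76 ± 0.288 CPM in control (4.01 ± 0.16, edgeR adjusted p = 9.02e-11). It also rose in the CoCl2-tolerant line, to 15.9 ± 2.47 CPM (1.74 ± 0.16, edgeR adjusted p = 1.57e-06). Of 9 other inositol phosphate phosphatases and relatives, none rose and 1 fell (INPP4B) in the CoCl2-tolerant line, while 4 rose and 1 fell in the low-glucose-tolerant line. INPP5A, which dephosphorylates inositol trisphosphate, rose to 38.0 ± 0.376 CPM in low-glucose-tolerant cells against 15.7 ± 1.41 CPM in control (edgeR adjusted p = 1.37e-07). The gene that fell there was INPP5J, to 5.53 ± 1.02 CPM against 14.2 ± 0.788 CPM in control (edgeR adjusted p = 1.57e-06).

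SLC5A3 is known as a target of NFAT5, the transcription factor of the response to hypertonic stress, and its list of 10 osmotic response genes was mixed. In the CoCl2-tolerant line 3 rose and 2 fell, with a median log2 fold change of 0.08 (0.01 for all genes). In the low-glucose-tolerant line 4 rose and 4 fell, with a median of -0.07 (-0.01 for all genes). SLC6A6, the taurine transporter, fell in the low-glucose-tolerant line to 132 ± 30.5 CPM against 497 ± 12.5 CPM in control (edgeR adjusted p = 3.13e-08). SGK1 had the largest rise of the list in the CoCl2-tolerant line, to 122 ± 5.62 CPM against 55.6 ± 0.957 CPM in control (edgeR adjusted p = 1.21e-06). The aldose reductase gene AKR1B1 rose in the CoCl2-tolerant line to 1021 ± 173 CPM and fell in the low-glucose-tolerant line to 548 ± 105 CPM, against 753 ± 43.4 CPM in control (edgeR adjusted p = 0.0310 and 0.0125). SLC6A12, a betaine transporter, fell in both, to 0.288 ± 0.150 CPM in CoCl2-tolerant and 0.967 ± 0.223 CPM in low-glucose-tolerant cells, against 2.09 ± 0.252 CPM in control (edgeR adjusted p = 1.45e-05 and 0.00185). HSPA1A and HSPA1B, near-identical heat shock genes whose counts can be split between them, rose to 59.4 ± 20.1 and 27.8 ± 4.90 CPM in low-glucose-tolerant cells against 6.04 ± 0.960 and 1.65 ± 0.0296 CPM in control (edgeR adjusted p = 2.03e-08 and 1.72e-10). NFAT5 fell in the CoCl2-tolerant line to 36.3 ± 6.20 CPM against 82.9 ± 1.17 CPM in control (edgeR adjusted p = 0.00659). In the low-glucose-tolerant line it was at 82.8 ± 50.3 CPM, with no call (edgeR adjusted p = 0.996).

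On the degradation side, MIOX feeds the glucuronate pathway. Of 8 listed genes of glucuronate and polyol metabolism, 2 rose and 1 fell in the CoCl2-tolerant line and 4 rose and 1 fell in the low-glucose-tolerant line. The 4 that rose in the low-glucose-tolerant line were AKR1A1, UGDH, DCXR and CRYL1, which make or use glucuronate, gulonate or xylulose. UGDH, which makes UDP-glucuronate, was at 47.0 ± 7.40 CPM in CoCl2-tolerant, 89.6 ± 7.36 CPM in low-glucose-tolerant and 34.5 ± 2.24 CPM in control cells (edgeR adjusted p = 0.0140 and 3.17e-07 against control). CRYL1, a gulonate dehydrogenase, rose to 19.7 ± 2.39 CPM in low-glucose-tolerant cells against 5.14 ± 0.688 CPM in control (edgeR adjusted p = 3.97e-08). KL, the gene of the anti-ageing protein klotho, was the only gene of this list to fall, and it fell in both lines. It was at 3.03 ± 0.549 and 1.70 ± 0.273 CPM, against 6.70 ± 0.310 CPM in control (edgeR adjusted p = 1.47e-04 and 2.50e-07).

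**Figure D4:**
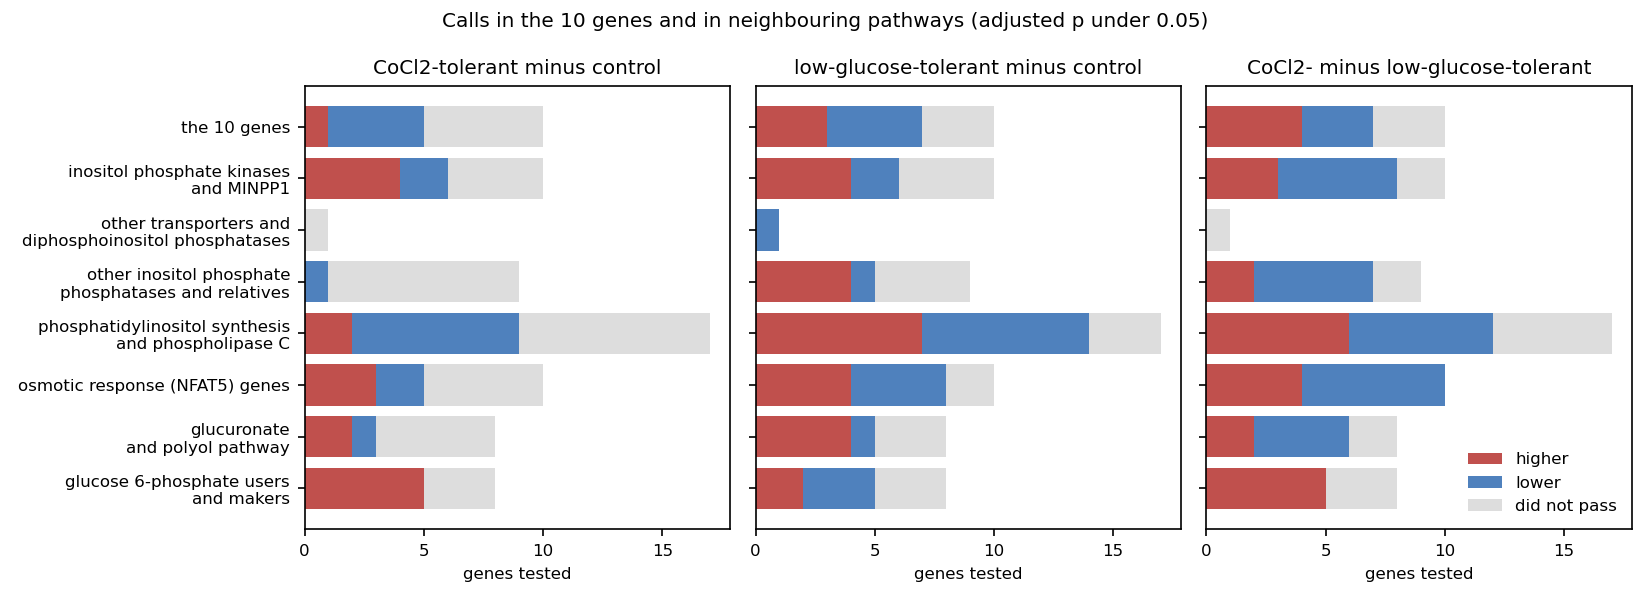
Number of tested genes that were higher, lower or did not pass (horizontal axis, adjusted p under 0.05) among the 10 genes and in 7 lists of neighbouring pathways, for the 3 comparisons. Calls in both directions are seen among the 10 genes in each comparison, with 5, 7 and 7 called.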

How the data were processed

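The deposited files hold raw read counts per gene, 1 file per library, which the authors did not normalise, checked here as whole numbers whose totals differ. The submitters' processing notes name featureCounts, DESeq2 and the build GRCh38. Their versions, the aligner, the annotation and whether strand was used in counting are not given in the sources. Of 36018 genes, 35938 took a symbol from a name table and 76 from GENCODE release 29, which gave positions, exon overlaps and lengths.

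Counts of all 9 libraries were fitted in edgeR 4.0.16 (R 4.3.3) with filterByExpr by group, trimmed means of M values, 1 mean per group, quasi-likelihood F tests and Benjamini-Hochberg adjustment over 17902 genes within each of 3 comparisons. Standard errors are the log2 fold change over the square root of F, and no block was fitted. The procedure was tested on simulated counts in which few genes changed, and in the CoCl2-tolerant group only. How it behaves when as many genes change as in these data was not tested. Pairs of libraries of a group differed by more than counting error (chi-squared over its degrees of freedom at least 2.28), and more in the tolerant lines than in the control. Members and lists were chosen with earlier results of these data known. Named genes are the 10 members, up to 4 of the called genes with the largest changes per list, the 2 nearest profiles of each called member and genes that share sequence with a member. Of the list genes the text gives examples; IP6K1, IP6K2 in the low-glucose-tolerant line, AKR1A1, AKR1B1, SLC2A13 in the CoCl2-tolerant line and CDIPT were added after their values were seen. Alternatives were the Wald test of DESeq2 1.42.0, its size factors, library totals, all genes unfiltered, a filter of 5 CPM in 3 libraries, fits of the 2 groups compared, a replicate block, annotated copies added and each library left out. One more, chosen after the data were seen, added RPS10-NUDT3 to NUDT3. Precision is limited by 3 libraries a group. Intervals are 95% and the floor of 3 counts covers counting error only. The brefeldin A-tolerant line was not analysed here.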

Additional observations from a re-analysis of the deposited data

Results flagged for a closer look

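In 7 of the 10 genes the CoCl2-tolerant and low-glucose-tolerant lines differed in their change from the shared control, by edgeR's test of the direct difference (CoCl2-tolerant minus low-glucose-tolerant, log2). The difference was -0.38 for ISYNA1, 1.01 for IMPA2, -1.02 for INPP1, 0.70 for PPIP5K1, 0.86 for PPIP5K2, -0.96 for NUDT4 and 1.19 for SLC5A3. Of all genes, 63.9% passed that test. In none of the 7 did the lines change in opposite directions with both changes called: IMPA2, PPIP5K2 and SLC5A3 fell and INPP1 rose in both, with the larger change in the low-glucose-tolerant line, PPIP5K1 and NUDT4 were called in that line alone and ISYNA1 in the CoCl2-tolerant line alone.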

How the results depend on the processing

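Of 30 values (10 genes in 3 comparisons), 19 were called. In 323 recomputed values of these 19 the direction held throughout, and 20 no longer passed; all were of INPP1 and PPIP5K2 in the CoCl2-tolerant line, NUDT3 in the low-glucose-tolerant line and ISYNA1 between the tolerant lines, as given above. Among values that were not called, 6 recomputed ones passed and 15 changed sign, all near 0: PPIP5K1 in the CoCl2-tolerant line with library totals (-0.00487), and PPIP5K1 and IMPA1 there with the stricter filter (-0.0121 and -7.69e-05), under which NUDT3 was not tested. With 1 library left out, log2 fold changes in the CoCl2-tolerant line ran from -0.0475 to 0.103 for IMPA1, -0.0783 to 0.0713 for PPIP5K1, -0.163 to 0.228 for NUDT3 and -0.0466 to 0.240 for MIOX; IMPA1 ran from -0.253 to 0.0789 in the low-glucose-tolerant line and from -0.0645 to 0.268 between the tolerant lines. The cause was not tested. Library totals moved the median of all genes by -0.10 in the low-glucose-tolerant comparison. The number of called genes among the 10 ran from 3 to 5 in the CoCl2-tolerant comparison when 1 library was left out (3 without control replicate 1 or 2), from 6 to 7 in the low-glucose-tolerant and from 6 to 8 in the direct comparison. Among all genes it ran from 4463 to 7965, from 11373 to 12903 and from 10476 to 11836 in the same 3 comparisons. Called genes of the 7 lists in the CoCl2-tolerant comparison, 29 in all, ran from 16 to 32 with 1 library left out (18, 17 and 16 without control replicate 1, 2 and 3) and from 25 to 35 under the other settings. The labels give the groups the same replicate numbers, but residuals of same-numbered libraries correlated at -0.416 to 0.204 (other pairs at -0.424 to 0.353), and the numbers were treated as names only. With the replicate block 4, 7 and 7 of the 10 genes were called, against 5, 7 and 7.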

Other observations

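Another 2 lists beside the pathway held genes not described above. Of 17 genes of phosphatidylinositol synthesis and phospholipase C, which build and cleave the inositol lipids, 2 rose and 7 fell in the CoCl2-tolerant line, and 7 rose and 7 fell in the low-glucose-tolerant line. PLCE1 fell in both, to 12.7 ± 1.03 CPM in CoCl2-tolerant and 10.9 ± 1.96 CPM in low-glucose-tolerant cells, against 34.2 ± 0.628 CPM in control. CDIPT, which joins inositol to its lipid, rose in the low-glucose-tolerant line to 56.9 ± 9.87 CPM against 35.1 ± 1.75 CPM in control (edgeR adjusted p = 2.20e-04). It did not pass in the CoCl2-tolerant line, at 39.6 ± 3.05 CPM (edgeR adjusted p = 0.308). PLCG2 and PLCD1 rose in low-glucose-tolerant cells, to 27.9 ± 3.03 and 25.9 ± 1.92 CPM, against 12.7 ± 0.454 and 11.4 ± 0.839 CPM in control (edgeR adjusted p = 1.27e-06 and 1.50e-06). PLCB4 fell in these cells, to 227 ± 26.2 CPM against 508 ± 11.7 CPM in control (edgeR adjusted p = 5.88e-07).

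Of 8 genes that make or use glucose 6-phosphate, the substrate of ISYNA1, 5 rose and none fell in the CoCl2-tolerant line, beside 17.9% and 18.2% of all genes. In the low-glucose-tolerant line 2 rose and 3 fell, beside 34.6% of all genes in each direction. GPI, the isomerase that passes glucose 6-phosphate into glycolysis, was at 665 ± 29.1 CPM in CoCl2-tolerant, 235 ± 22.6 CPM in low-glucose-tolerant and 351 ± 1.52 CPM in control cells (edgeR adjusted p = 1.16e-05 and 1.58e-04 against control).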
